A study of Mus musculus with 59 samples.

Results

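The mammalian circadian clock was followed here through the messenger RNA of 10 of its genes, Per1, Per2, Per3, Nr1d1, Nr1d2, Dbp, Tef, Hlf, Ciart and Arntl, in the prefrontal cortex of young mice. The genes were chosen by name, and all 10 were found by their Ensembl identifiers among the 18088 genes of the deposited table and kept by the filter on low values. RNA came from 59 C57BL/6J mice aged 25 postnatal days. Of these, 30 were heterozygous for the I48X mutation of Dyrk1a, a protein kinase gene (Dyrk1a+/I48X, here Het), and 29 were wild type (WT). Lithium or fluoxetine had reached the pups through the milk of their mothers from postnatal day 3 to day 24, and vehicle mice served as controls. Genotype, treatment and sex gave 12 groups of 5 mice, except WT fluoxetine males with 4. All 59 mice are labelled as separate samples, but no label gives the litter, the hour of dissection or the lighting schedule, so a p-value reflects only the variation among these animals, which may share litters, and a phase in hours could not be assigned to any of them. The question was whether the clock genes differed between genotypes and treatments, as a shift of clock phase would make them do.

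In the clock, the proteins BMAL1 (the product of Arntl) and CLOCK bind E-boxes and switch on the Per, Cry, Nr1d1, Nr1d2, Dbp, Tef, Hlf and Ciart genes. PER and CRY proteins then block BMAL1 and CLOCK, the REV-ERB receptors encoded by Nr1d1 and Nr1d2 repress Arntl, and the PAR bZIP factors DBP, TEF and HLF act at D-boxes. Arntl RNA therefore peaks when most of the others are low, and Per1 is also an early response gene that neuronal activity, cyclic AMP and glucocorticoids can induce. DYRK1A and the lithium target GSK3 both phosphorylate the clock protein CRY2.

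The 250 bases before a start site in RefSeq (GRCm38.p6) are shown 5′ to 3′ on the gene's own strand. They are given for the 5 members with an E-box, E-prime box or D-box in such a window, at 1 start site each. The other Per1 window and the windows of Arntl, Dbp, Nr1d2 and Hlf held none of these boxes and are not shown. Capitals mark the E-box CACGTG in Per1, Tef and Ciart, the related E-prime box CACGTT, which Nr1d1 carries on the opposite strand and which therefore reads AACGTG, and the D-box TTATGTAA in Per3.
Per1, chr11:69098699-69098948, plus strand: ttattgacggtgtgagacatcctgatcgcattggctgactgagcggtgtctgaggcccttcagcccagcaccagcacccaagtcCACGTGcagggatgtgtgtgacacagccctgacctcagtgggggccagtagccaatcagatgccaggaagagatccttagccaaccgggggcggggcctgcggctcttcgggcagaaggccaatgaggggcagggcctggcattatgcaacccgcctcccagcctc
Tef, second start, chr15:81811164-81811413, plus strand: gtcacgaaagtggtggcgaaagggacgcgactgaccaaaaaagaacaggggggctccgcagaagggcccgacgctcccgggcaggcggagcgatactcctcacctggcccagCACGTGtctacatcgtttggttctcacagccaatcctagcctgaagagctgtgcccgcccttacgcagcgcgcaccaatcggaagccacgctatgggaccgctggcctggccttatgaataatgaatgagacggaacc
Ciart, chr3:95882229-95882478, minus strand: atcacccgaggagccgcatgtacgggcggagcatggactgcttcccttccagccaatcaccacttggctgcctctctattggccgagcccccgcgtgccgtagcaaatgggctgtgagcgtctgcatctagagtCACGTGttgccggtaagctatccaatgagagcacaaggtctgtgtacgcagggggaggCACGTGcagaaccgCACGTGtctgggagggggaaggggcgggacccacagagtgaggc
Nr1d1, chr11:98775378-98775627, minus strand: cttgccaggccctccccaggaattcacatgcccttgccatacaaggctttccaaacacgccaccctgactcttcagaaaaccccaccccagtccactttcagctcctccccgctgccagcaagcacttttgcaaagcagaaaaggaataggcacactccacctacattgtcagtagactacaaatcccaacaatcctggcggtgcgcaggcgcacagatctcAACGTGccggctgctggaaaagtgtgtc
Per3, chr4:151044666-151044915, minus strand: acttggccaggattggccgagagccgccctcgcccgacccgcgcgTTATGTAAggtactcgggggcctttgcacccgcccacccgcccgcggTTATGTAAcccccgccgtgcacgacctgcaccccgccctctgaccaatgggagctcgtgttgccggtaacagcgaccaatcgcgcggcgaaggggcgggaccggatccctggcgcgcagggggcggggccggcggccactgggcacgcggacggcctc
RefSeq windows were matched for 9 of the 10 members, 12 windows in all, and Per2 had none in the table used. With both strands searched, the E-box was in 4 of the 12 windows, those of Per1, Tef and Ciart, and in 6.02% of all 32851 windows of this length. Ciart held 3 copies, at 116, 58 and 44 bases before its start. The E-prime box was in 1 member window against 3.85% of all, the D-box in 1 against 0.819%, and the cyclic AMP response element TGACGTCA in 1, that of Hlf, against 1.55%. The half-site AGGTCA bound by REV-ERB and ROR receptors was in 2 member windows against 14.0% of all. A match describes letters in the window and is neither a proven site nor a cause, and these genes also have regulatory elements outside it.

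Across all 59 mice the level per kilobase of annotated exon was highest for Tef, at 1160 ± 121 normalised counts (SD, n = 59), and lowest for Arntl, at 106 ± 12.4. Hlf (706 ± 107) and Nr1d1 (691 ± 63.4) came next and differed by less than their spread, then Nr1d2 (597 ± 38.9), Dbp (524 ± 86.7) and Per1 (443 ± 74.7). Per2 (223 ± 34.0), Per3 (157 ± 18.2) and Ciart (152 ± 27.3) were lower, and the last 2 again overlapped. All other values below are normalised counts per gene, which are reads scaled for library depth and not for gene length. The order of levels puts a PAR bZIP factor first and the activator gene last.

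**Figure D1:**
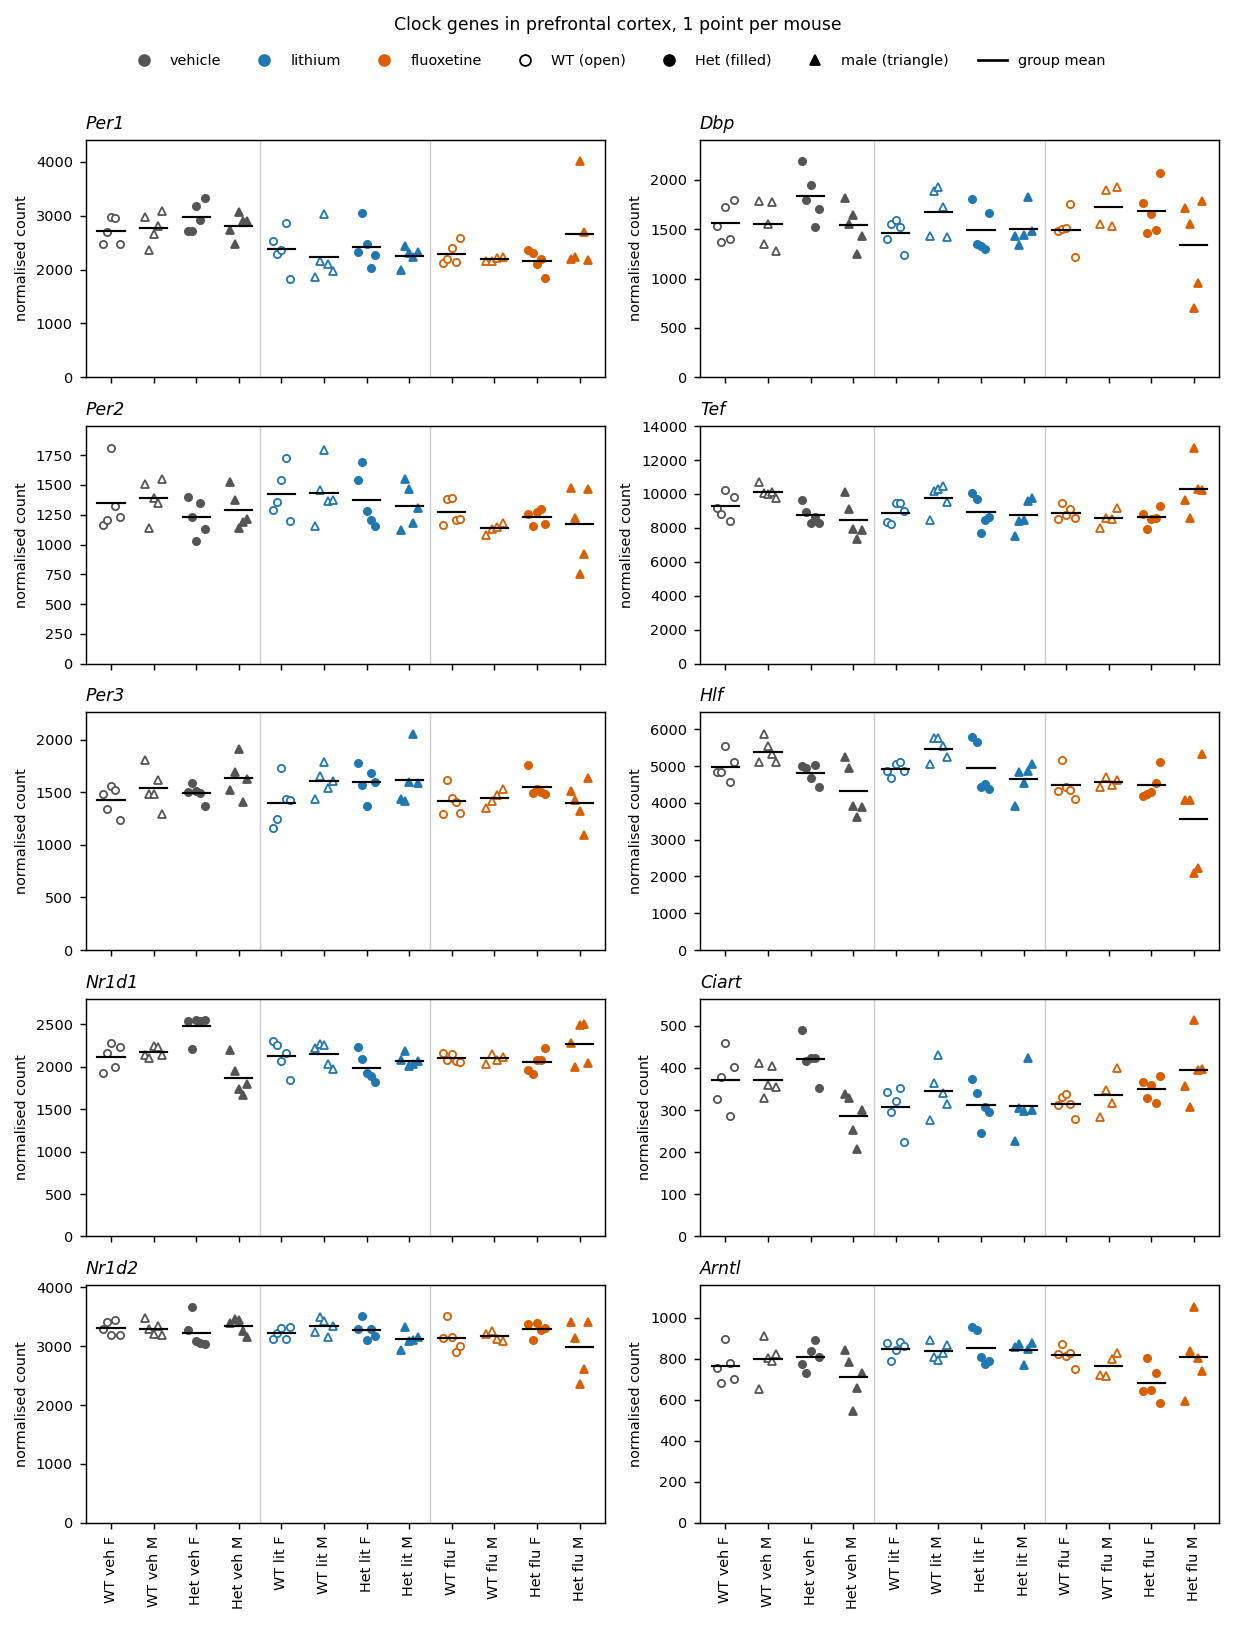
Normalised count of each clock gene (vertical axes, from 0) in each mouse, with the 12 groups along the horizontal axis and a bar at each group mean. Per1 group means are lower with lithium and fluoxetine than under vehicle, Tef and Hlf in WT males are also lower with fluoxetine than under vehicle without overlap, and Het fluoxetine male replicates 3 and 4 are lowest for Hlf at 2106 and 2242.

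Facts of the whole series bear on these genes. Totals ran from 24391022 to 33842466 recovered counts per library. All 6 cortical excitatory neuron markers were expressed (Slc17a7 averaged 42073 and Camk2a 77471), with a mean from -1.14 to 0.34 on a log2 scale centred on all libraries. But all 8 olfactory bulb markers were expressed too (Cdhr1 averaged 3118, Doc2g 2050). The mean of those 8 markers, on a log2 scale centred on all libraries, ran from -2.90 to 2.38, and was lowest in WT vehicle males (-2.90 to -0.56) and high in Het vehicle males (-0.07 to 2.38). In bulk tissue, fewer cells of a type and less RNA per cell cannot be told apart. Het fluoxetine male replicates 3 and 4 stood apart: their mean of 12 glucocorticoid-responsive genes was 1.59 and 0.52, against -0.22 to 0.22 in the other 57 libraries, and results that use them are given with and without them. Dyrk1a RNA was not lower in Het mice (difference over treatments 0.13 ± 0.03, adjusted p = 0.00768 by limma), and the RNA level of a gene with a premature stop does not check the genotype label.

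Both drug comparisons use the same vehicle mice, and in each, averaged over genotypes and sexes, Per1 was the only member called. Per1, a repressor of the clock loop, averaged 2890 ± 247 in Het vehicle mice (SD, n = 10), 2342 ± 292 with lithium (n = 10) and 2410 ± 601 with fluoxetine (n = 10). In WT mice it averaged 2745 ± 254 under vehicle (n = 10), 2301 ± 407 with lithium (n = 10) and 2246 ± 150 with fluoxetine (n = 9). The drug means were lower than the vehicle means in both genotypes. Over the 20 vehicle mice Per1 ran from 2356 to 3319 with a median of 2854. With lithium it ran from 1824 to 3053 with a median of 2298. Set against the vehicle mean of their own genotype and sex, 17 of 20 lithium mice were lower. With fluoxetine Per1 ran from 1840 to 4010 with a median of 2203, and 18 of 19 mice were lower in the same way. The groups overlapped, and the highest fluoxetine value was Het male replicate 3.

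Averaged over genotypes and sexes, Per1 fell by 0.29 on the log2 scale with lithium (standard error 0.06, 95% interval -0.41 to -0.17, adjusted p = 0.00268), to 0.819 times the vehicle level. That was 1 of 10 members called, where limma with Benjamini-Hochberg adjustment over 17901 genes called 2.12% of all genes. With fluoxetine it fell by 0.29 (standard error 0.06, interval -0.41 to -0.17, adjusted p = 0.00356), to 0.818 times, again 1 of 10 members, beside 3.09% of all genes. Without Het fluoxetine male replicates 3 and 4 the fluoxetine difference was -0.35 (adjusted p = 3.3e-05). Both differences kept their call under all 12 alternative settings and with any of the 40 or 39 libraries left out.

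Within the 4 strata of sex and genotype the Per1 means were below vehicle with each drug. Het fluoxetine females (1840 to 2369) did not overlap Het vehicle females (2712 to 3319), Het lithium males (1993 to 2430) did not overlap Het vehicle males (2476 to 3061), and WT fluoxetine males (2157 to 2232) did not overlap WT vehicle males (2356 to 3090). In the first pair of groups Per1 was 1 of 10 members without overlap, beside 4.59% of all genes, and in the second 1 of 10, beside 2.39%. In WT males it was 1 of 3 such members of 10, beside 17.4% of all genes, since Tef (7978 to 9148 with fluoxetine against 9773 to 10678) and Hlf (4431 to 4695 against 5097 to 5873) were also lower without overlap. Olfactory bulb marker means in those 2 groups did not overlap either, at 0.95 to 1.49 with fluoxetine and -2.90 to -0.56 under vehicle, and their part was not tested. By genotype, the fluoxetine difference of Per1 was called in Het mice (-0.29, standard error 0.08, adjusted p = 0.0379), 1 of 10 members beside 4.27% of all genes. That call was lost when only the groups compared were fitted (adjusted p = 0.294) and in 9 of 20 fits that left out 1 library (highest adjusted p = 0.0763). In WT mice the difference was -0.29 (adjusted p = 0.087), with 0 of 10 members called beside 0.447% of all genes. Lithium gave -0.31 in Het (adjusted p = 0.0844, 0 of 10 beside 0.497%) and -0.27 in WT mice (adjusted p = 0.28, 0 of 10 beside 0.162%). The effect of neither drug on Per1 was shown to differ by genotype (lithium -0.04, interval -0.28 to 0.20; fluoxetine 0.001, interval -0.24 to 0.24), and limma called 0% of all genes in both of those interactions.

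Genes of the rapid transcriptional response to neuronal activity moved with Per1. Of 16 immediate early genes, 9 were called lower with lithium, beside 2.12% of all genes called, and 12 with fluoxetine, beside 3.09%. List medians were -0.54 and -0.61, where the median over all genes was 0.002 and 0.003. Junb, an AP-1 subunit, fell by 0.60 with lithium (adjusted p = 0.00182) and by 0.79 with fluoxetine (adjusted p = 4.6e-05). Nr4a1, a nuclear receptor gene, fell by 0.53 (adjusted p = 0.00428) and by 0.82 (adjusted p = 1.3e-05). After subtracting group means, Per1 correlated with the mean of the 16 genes over 59 mice (Pearson r = 0.49, permutation p = 1.2e-04, Spearman rho = 0.59, permutation p = 1e-05, the smallest that 100000 permutations can give). Without the 2 libraries that stood apart r was 0.59 and rho 0.65 (n = 57, permutation p = 2e-05 and 1e-05), and without the 2 mice farthest from the median on the immediate early axis r was 0.49. The adjusted p over the 40 relations of members and gene lists was 0.0024 for r and 2.0e-04 for rho. Among 12 glucocorticoid-responsive genes, Zbtb16 was called higher and Ddit4 lower with lithium, and Plin4, Fkbp5 and Zbtb16 higher and Pdk4 lower with fluoxetine. The mean of those 12 genes correlated with Per1 over 59 mice at r = 0.60 (rho = 0.36, adjusted permutation p = 0.0193 for r and 0.0625 for rho). Without the 2 libraries that stood apart r was 0.25 (rho = 0.19, adjusted permutation p = 0.252 for r), so the relation rests on them. The part of neuronal activity or glucocorticoids in the Per1 difference was not tested.

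**Figure D2:**
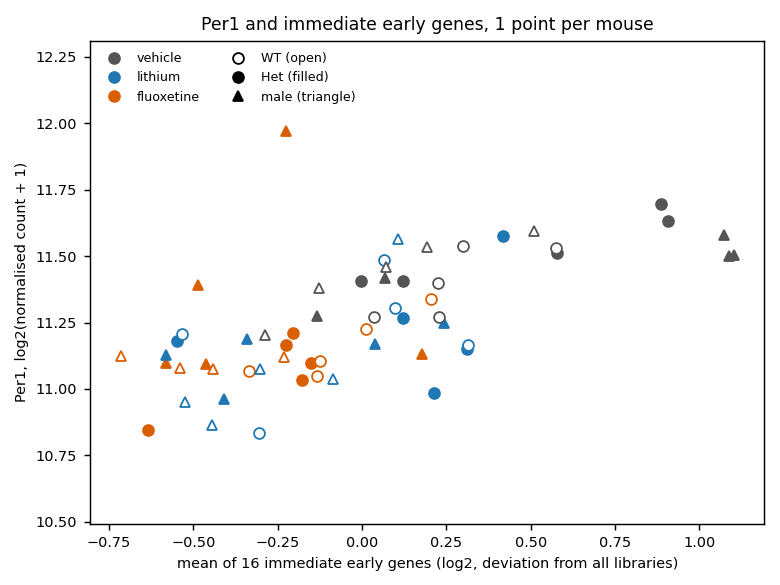
Per1 on the log2(normalised count + 1) scale (vertical axis) against the mean of 16 immediate early genes on a log2 scale centred on all libraries (horizontal axis), 1 point per mouse. Vehicle mice reach the highest values on the horizontal axis, and Het fluoxetine male replicate 3, at a Per1 count of 4010, lies off the trend of the others.

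Per2 and Per3, the other Period genes, were called in none of the 24 comparisons. Per2 ran from 1028 to 1814 (median 1280) under vehicle, from 1123 to 1797 (median 1363) with lithium and from 753 to 1477 (median 1208) with fluoxetine, so the 3 ranges overlapped. The differences were 0.08 with lithium (interval -0.06 to 0.21) and -0.13 with fluoxetine (interval -0.27 to 0.01). Per3 ran from 1232 to 1909 under vehicle and from 1163 to 2055 with lithium. Its lithium difference was 0.03 (interval -0.07 to 0.13) and its fluoxetine difference -0.07 (interval -0.17 to 0.03). None of these 4 intervals reached the -0.29 found for Per1. That estimate has an interval of its own, which the Per2 interval with fluoxetine overlapped, and no test compared the genes.

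**Figure D3:**
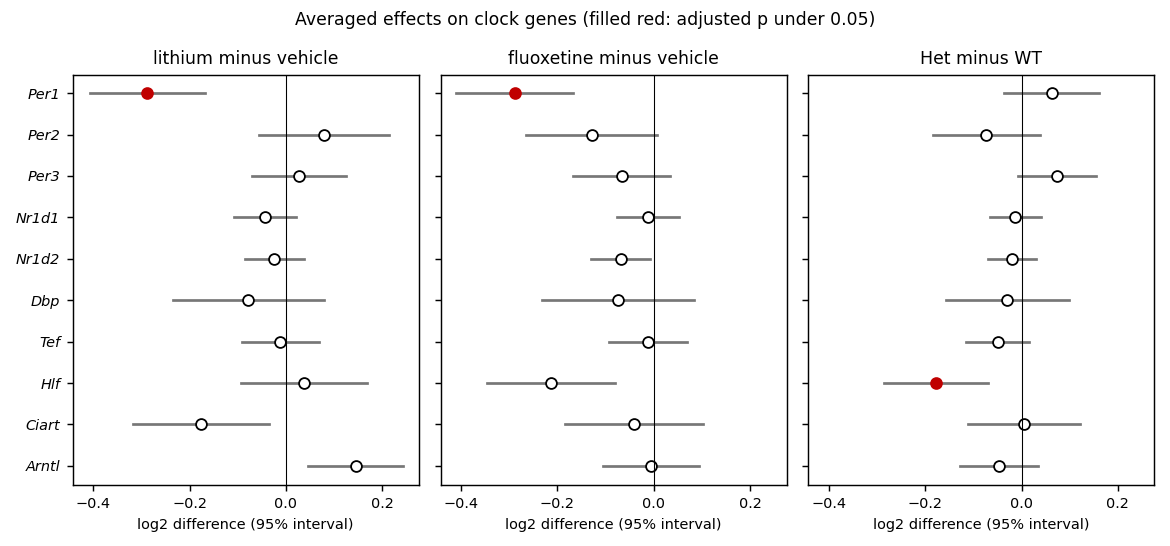
Differences on the log2 scale (horizontal axes) with 95% intervals for the 10 clock genes (vertical axes), for lithium against vehicle, fluoxetine against vehicle and Het against WT, each averaged over the other factors. Filled points are adjusted p under 0.05: Per1 at -0.29 in both drug panels and Hlf at -0.18 in the genotype panel.

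Nr1d1 and Nr1d2 encode REV-ERBα and REV-ERBβ, the repressors of Arntl. Averaged over genotypes, Nr1d1 differed by -0.04 with lithium (interval -0.11 to 0.02) and by -0.01 with fluoxetine (interval -0.08 to 0.05). Those averages hold a split in the Het vehicle mice. Nr1d1 read 2541, 2209, 2548, 2535 and 2549 in Het vehicle females and 2197, 1954, 1734, 1667 and 1794 in Het vehicle males. In WT vehicle mice it read 1924, 2167, 2278, 1998 and 2237 in females and 2143, 2101, 2249, 2229 and 2137 in males. Het females were high and Het males low, with no overlap between them, while the WT sexes overlapped. Nr1d1 and Ciart were the 2 of 10 members without overlap between the Het vehicle sexes, beside 3.11% of all genes.

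Under vehicle, Nr1d1 was lower in Het than in WT males (-0.22, standard error 0.06, adjusted p = 0.00523). It differed by 0.22 in females (interval 0.10 to 0.35, adjusted p = 1), where 0 of 10 members and 0% of all genes were called. The genotype difference depended on sex for Nr1d1 (0.45, standard error 0.09, adjusted p = 0.0156) and Ciart (0.60, standard error 0.20, adjusted p = 0.0354), 2 of 10 members beside 16% of all genes. In the same comparison of males, 8 of 8 olfactory bulb markers were called higher in Het mice, at a median of 3.83, against 0 of 8 in females at a median of -0.13. With the mean of those markers as a covariate the Nr1d1 difference in males was -0.09 (adjusted p = 0.738) and its interaction with sex was 0.31 (adjusted p = 0.892), so neither was called, and the interaction of Ciart was 0.26 (adjusted p = 0.901). Both interactions were also lost when only the groups compared were fitted (adjusted p = 0.0734 for each), in 3 of 20 fits that left out 1 library for Nr1d1 (highest adjusted p = 0.0645) and in 8 of 20 for Ciart (highest adjusted p = 0.113).

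The drugs were measured against those same vehicle mice. In Het females, Nr1d1 was lower with lithium (1819 to 2235, n = 5) than under vehicle (2209 to 2549), by -0.32 (standard error 0.06, adjusted p = 0.0118), 1 of 10 members beside 0.274% of all genes. With fluoxetine (1921 to 2223) the difference was -0.27 (standard error 0.06, adjusted p = 0.0427), 1 of 10 beside 0.38%. In Het males the lithium difference was 0.16 (interval 0.03 to 0.28, adjusted p = 0.151), with 0 of 10 called beside 0.916%. The lithium effect on Nr1d1 in Het mice differed between the sexes (-0.47, standard error 0.09, adjusted p = 0.0182), 1 of 10 beside 3.07% of all genes. No member was called for such a difference in WT mice, where limma called 0% of all genes with either drug. The lithium results in Het females and by sex were lost when only the groups compared were fitted (adjusted p = 0.11 and 0.0933), and the fluoxetine result in Het females with the olfactory bulb covariate (adjusted p = 0.122). With 1 library left out, the fluoxetine call in Het females was lost in 7 of 10 fits (highest adjusted p = 0.166), the lithium call in Het females in 3 of 10 (highest 0.0539) and the lithium difference by sex in 4 of 20 (highest 0.0654).

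Nr1d2 was steady, with a range of 2361 to 3675 over 59 mice and of 2905 to 3675 without Het fluoxetine male replicates 3 and 4. Averaged over genotypes it differed by -0.02 with lithium (interval -0.08 to 0.04) and by -0.07 with fluoxetine (interval -0.13 to -0.01, adjusted p = 0.202). The call in Het fluoxetine males (-0.18, adjusted p = 0.0177) was -0.01 without those 2 mice (adjusted p = 0.91).

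Dbp, Tef and Hlf, the PAR bZIP output factors, were called with neither drug when genotypes were averaged. Averaged over genotypes, lithium differences were -0.08 for Dbp (interval -0.23 to 0.08), -0.01 for Tef (interval -0.09 to 0.07) and 0.04 for Hlf (interval -0.09 to 0.17). With fluoxetine they were -0.08 for Dbp (interval -0.23 to 0.08), -0.01 for Tef (interval -0.09 to 0.07) and -0.21 for Hlf (interval -0.35 to -0.08, adjusted p = 0.0604). Dbp, among the most strongly cycling of clock outputs, ran from 1253 to 2189 under vehicle, from 1240 to 1923 with lithium and from 706 to 2074 with fluoxetine. Dbp was called in none of the 24 comparisons, and its lowest values, 706 and 959, were the 2 Het fluoxetine males that stood apart.

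Hlf was the one member that differed by genotype when treatments were averaged. It ran from 2106 to 5790 (median 4532) in 30 Het mice and from 4114 to 5873 (median 5046) in 29 WT mice. Of the 30 Het mice, 23 were below the WT mean of their own treatment and sex. The ranges overlapped. The difference was -0.18 (standard error 0.05, interval -0.29 to -0.07, adjusted p = 0.0202), 1 of 10 members beside 21.4% of all genes. Without Het fluoxetine male replicates 3 and 4 it was -0.11 (adjusted p = 0.027), with the olfactory bulb markers as a covariate -0.15 (adjusted p = 0.108), and with both changes, a setting added after the data were seen, -0.05 (adjusted p = 0.439). Of the 8 olfactory bulb markers none was called in this comparison, at a list median of 0.78.

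Under vehicle alone, Tef was the member called between genotypes, 1 of 10 beside 13.1% of all genes. Tef ran from 7358 to 10116 (median 8471) in 10 Het mice and from 8410 to 10678 (median 9907) in 10 WT mice. Of the 10 Het mice, 9 were below the WT mean of their own sex. The difference was -0.17 (standard error 0.06, adjusted p = 0.038), and it was lost under 4 of 12 alternative settings and in 12 of 20 fits that left out 1 library (highest adjusted p = 0.112). With lithium and with fluoxetine the genotype difference of Tef was -0.08 (adjusted p = 0.404) and 0.11 (adjusted p = 0.38). In those treatments 0 of 10 members were called, beside 0.0112% of all genes in each.

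Within the sexes, the Tef difference was called in males and not in females, although the sexes were not shown to differ (interaction 0.18, interval -0.04 to 0.41, adjusted p = 0.258). In Het vehicle males Tef read 10116, 9134, 7917, 7358 and 7872, against 10678, 10058, 10019, 10116 and 9773 in WT vehicle males. Hlf read 5245, 4949, 3908, 3603 and 3883, against 5097, 5873, 5552, 5323 and 5114. For both genes Het replicates 3, 4 and 5 were the low ones, and replicate 1 lay inside the WT range. Tef, Hlf, Nr1d1 and Ciart were called in vehicle males, all lower in Het mice, 4 of 10 members where 36.7% of all genes were called, so their count was close to the background. Differences were -0.27 for Tef (adjusted p = 0.00734) and -0.33 for Hlf (adjusted p = 0.0392). The Hlf call was lost with TMM scaling, quantile normalization and edgeR (-0.30, adjusted p = 0.0568), and in 6 of 10 fits that left out 1 library (highest adjusted p = 0.138). Het replicates 3, 4 and 5 also had the highest olfactory bulb marker means of that group (2.38, 2.34 and 1.76, against -0.07 and 1.10 in replicates 1 and 2), and with that covariate the differences were -0.04 for Tef (adjusted p = 0.91) and -0.22 for Hlf (adjusted p = 0.713). Their means of the 6 cortical excitatory markers were -1.14, -1.06 and -0.40, against 0.20 and -0.06. Olfactory bulb marker means did not overlap between the groups compared, at -0.07 to 2.38 in Het and -2.90 to -0.56 in WT vehicle males. A fit with that covariate therefore cannot tell tissue content from genotype in vehicle males. The part of dissected tissue in these calls was not tested.

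Ciart encodes CHRONO, a repressor of BMAL1, and it varied between sexes in the same way as Nr1d1. In Het vehicle females it read 489, 417, 424, 423 and 353, and in Het vehicle males 339, 329, 253, 208 and 299. In WT vehicle females it read 327, 378, 459, 287 and 402, and in WT vehicle males 413, 329, 360, 404 and 356. Het females lay above Het males without overlap, as for Nr1d1, whereas the WT sexes overlapped. The Het minus WT difference in vehicle males was -0.40 (standard error 0.14, adjusted p = 0.0227), and it was not called with the olfactory bulb covariate (-0.07, adjusted p = 0.909) or in 4 of 10 fits that left out 1 library (highest adjusted p = 0.129). Over both genotypes, Ciart ran from 224 to 431 with lithium (n = 20) against 208 to 489 under vehicle (n = 20). Of the 20 lithium mice, 15 were below the vehicle mean of their own genotype and sex. The averaged lithium difference was -0.18 (interval -0.32 to -0.04) and missed the threshold (adjusted p = 0.213 by limma). With fluoxetine it was -0.04 (interval -0.18 to 0.10).

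Arntl, the activator gene whose RNA in a running clock peaks when most of the others are low, was called in no averaged comparison. It ran from 768 to 957 (median 852) in 20 lithium mice, from 546 to 910 (median 780) in 20 vehicle mice and from 585 to 1054 (median 801) in 19 fluoxetine mice. Lithium mice sat high against the vehicle range and reached above it. Of the 20, 16 were above the vehicle mean of their own genotype and sex. The lithium difference was 0.14 (standard error 0.05, interval 0.05 to 0.24) and missed the threshold (adjusted p = 0.122). It was -0.01 with fluoxetine (interval -0.11 to 0.09) and -0.05 between genotypes (interval -0.13 to 0.03). In the fit with the olfactory bulb covariate and without Het fluoxetine male replicates 3 and 4, a setting added after the data were seen, Arntl (0.14, adjusted p = 0.0276) and Ciart (-0.18, adjusted p = 0.0454) were called with lithium beside Per1.

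Het males given fluoxetine had 5 of 10 members called, beside 37.6% of all genes: Nr1d1 (0.28), Tef (0.28) and Ciart (0.47) were higher and Hlf (-0.35) and Nr1d2 (-0.18) lower than under vehicle. In the 5 mice Hlf read 4089, 4085, 2106, 2242 and 5330, and Nr1d1 read 2285, 2000, 2487, 2508 and 2046. Replicates 3 and 4 were the lowest for Hlf and the highest for Nr1d1. Without them 0 of 10 members were called, and Hlf differed by 0.06 in place of -0.35. Nr1d2 then differed by -0.01, while Nr1d1 (0.18), Tef (0.17) and Ciart (0.32) were still higher than under vehicle. Fitting only the 2 groups compared also gave 0 of 10. Both fits hold fewer mice, so a lost call alone does not show that a difference was absent. Tissue markers differed between the same groups: the median of the olfactory bulb mean was -0.76 with fluoxetine and 1.76 under vehicle, with 7 of 8 markers called lower, and that of the striatal neuron mean 0.58 and -0.13, with 3 of 7 called higher. Fluoxetine replicates 3, 4 and 5 had striatal means of 0.58, 0.61 and 0.84. With the olfactory bulb covariate the differences were 0.13 for Tef (adjusted p = 0.164), 0.26 for Ciart (adjusted p = 0.174) and -0.16 for Nr1d2 (adjusted p = 0.0947), while Nr1d1 (0.19, adjusted p = 0.0295) and Hlf (-0.42, adjusted p = 0.0354) were called. The part of striatal tissue was not tested. The difference in fluoxetine effect between Het females and Het males was called for Nr1d1, Nr1d2, Tef, Ciart and Arntl, 5 of 10 beside 34.3% of all genes. Without the same 2 mice only Nr1d1 (-0.45, adjusted p = 0.00686) and Ciart (-0.58, adjusted p = 0.0401) kept it. With the olfactory bulb covariate Nr1d1 was -0.41 (adjusted p = 0.0271) and Ciart -0.38 (adjusted p = 0.26), and with both changes neither was called (-0.35, adjusted p = 0.0761, and -0.33, adjusted p = 0.412).

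The position of Arntl against the rest was read as the Arntl deviation minus the mean deviation of the other 9 genes, in log2 units. In a running clock Arntl RNA peaks when most of the others are low, so a shift of phase could move this position. Over 59 mice it ran from -0.48 to 0.60. Vehicle groups had medians of -0.03 (WT females), -0.06 (WT males), -0.002 (Het females) and -0.05 (Het males). Lithium groups had medians of 0.07, 0.02, 0.13 and 0.16 in the same order. Het lithium females (0.07 to 0.18) were the tightest of these, and overlapped Het vehicle females, which ran from -0.22 to 0.08. WT lithium males (-0.25 to 0.27) also overlapped WT vehicle males (-0.47 to 0.20). WT lithium females (0.03 to 0.31) lay above WT vehicle females, and Het lithium males (0.003 to 0.34) lay above Het vehicle males (-0.48 to -0.03), both without overlap. WT fluoxetine females (0.06 to 0.17) lay above WT vehicle females (-0.22 to -0.003), and Het fluoxetine females had the lowest median, -0.26, within a range of -0.47 to 0.13. Het fluoxetine males spanned -0.45 to 0.60. Genotypes overlapped under vehicle and with lithium. No p is given for this summary. Without an hour of dissection it does not separate a shift of phase from a change in the level of single genes. Nor were the 2 sides seen to run opposite within groups, where Arntl passed the threshold with no member, as given below. After subtracting group means Arntl also correlated with the olfactory bulb marker mean (r = -0.37, adjusted permutation p = 0.023, n = 59). Without the 2 libraries that stood apart r was -0.32 (adjusted permutation p = 0.0625). The part of tissue in these positions was not tested.

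**Figure D4:**
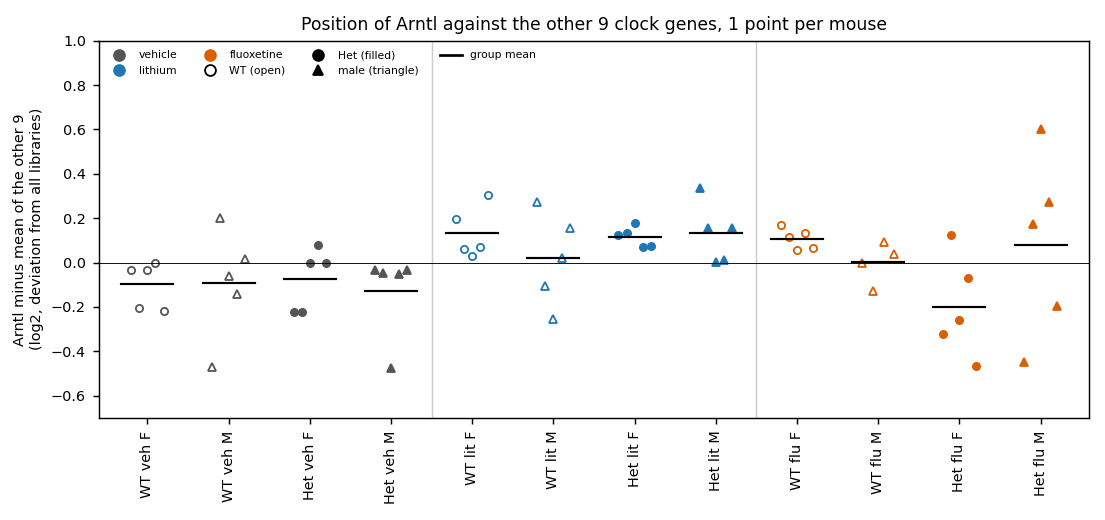
Deviation of Arntl minus the mean deviation of the other 9 clock genes in log2 units (vertical axis) for each mouse in the 12 groups (horizontal axis), with bars at group means. Lithium group medians lie between 0.02 and 0.16 and vehicle medians between -0.06 and -0.002. Lithium and vehicle mice overlap in WT males and Het females, but not in WT females or Het males. Het fluoxetine males spread from -0.45 to 0.60.

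Averaged over genotype and treatment, no member differed by sex (0 of 10, beside 0.156% of all genes), with differences from -0.06 for Tef to 0.06 for Hlf. In this and the 11 other comparisons with no member called, edgeR's quasi-likelihood test called 0 members too, and between 0 and 3 members had an unadjusted p under 0.05 by limma.

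Several members varied together from mouse to mouse, with Tef, Hlf, Dbp and Ciart foremost. After subtracting group means and leaving out the 2 libraries that stood apart, 21 of 45 pairs of members correlated at an adjusted p under 0.05 (57 mice, 100000 permutations), all 21 positively. Tef and Hlf had the highest correlation (r = 0.82, rho = 0.80), then Tef and Ciart (r = 0.76, rho = 0.73), Dbp and Ciart (r = 0.69, rho = 0.70) and Hlf and Ciart (r = 0.65, rho = 0.64), each at an adjusted permutation p = 9.0e-05. Leaving out the 2 mice farthest from the median of the first gene gave r = 0.79, 0.73, 0.67 and 0.63 for these 4 pairs. Per1 correlated only with Per2 among them (r = 0.53, rho = 0.36, adjusted p = 0.00274). Arntl passed the threshold with no other member there, and its r ran from -0.25 with Nr1d2 to 0.41 with Hlf. Over all 59 mice, with group differences kept, 21 of 45 pairs were called as well, 17 positive and 4 negative, and Arntl with Nr1d2 was one of the 4 (r = -0.40, rho = -0.31, adjusted p = 0.00874). The olfactory bulb marker mean varied with some of the same genes: it correlated with Tef (r = -0.67, rho = -0.67) and Hlf (r = -0.64, rho = -0.675) over the same 57 mice, both at an adjusted permutation p of 2.0e-04 for r. It also correlated with Per2 (r = -0.52, rho = -0.56, adjusted permutation p = 0.00847), Ciart (r = -0.51, rho = -0.52, adjusted permutation p = 0.00847) and Nr1d1 (r = -0.45, rho = -0.41, adjusted permutation p = 0.0198), so 5 of 10 members passed.

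**Figure D5:**
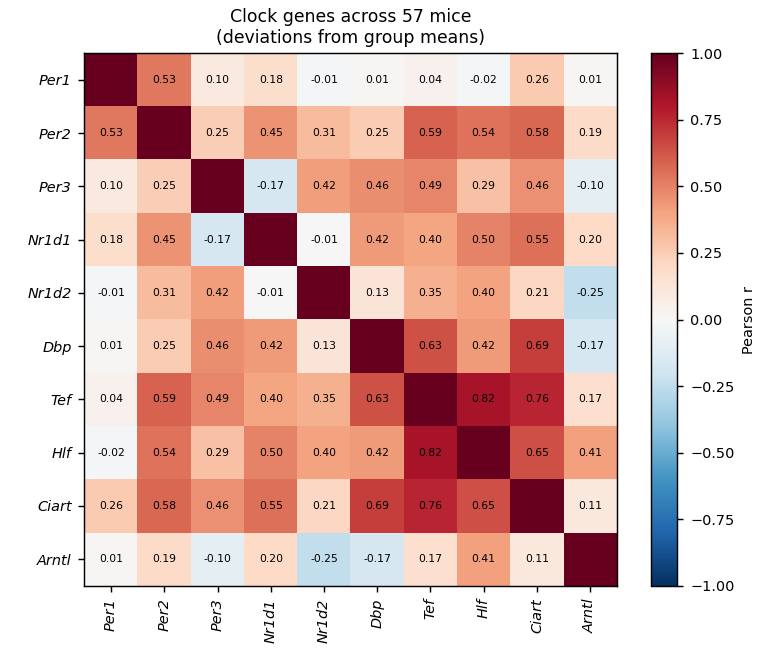
Pearson correlations between the 10 clock genes (both axes) over 57 mice as deviations from group means, with colour and the printed number giving r. Tef, Hlf, Dbp, Ciart and Per2 form a positive block, with Tef and Hlf at 0.82, while the Per1 and Arntl lines are paler.

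The rest of the clock was read from a list of 19 genes, all tested. With lithium 0 of 19 were called, beside 2.12% of all genes, at a list median of -0.01. With fluoxetine 2 of 19 were called by limma, beside 3.09% of all genes, and both were lower. Bhlhe40, the DEC1 repressor, differed by -0.21 (adjusted p = 0.0389), and Rora, an activator of Arntl, by -0.19 (adjusted p = 0.0144). Between genotypes, averaged over treatments, 5 were higher and 2 lower, beside 21.4% of all genes. Cry1, a core repressor, was higher by 0.14 (adjusted p = 0.0364), Nfil3, a repressor that competes at D-boxes, by 0.29 (adjusted p = 0.0272), and Bhlhe41, the DEC2 repressor, by 0.17 (adjusted p = 0.0239). Npas2, a partner of BMAL1, was lower by -0.15 (adjusted p = 0.0292) and Cry2, the CRY protein that DYRK1A phosphorylates, by -0.07 (adjusted p = 0.0181). Dyrk1a itself was among the higher ones. Clock, Gsk3b, Csnk1d, Csnk1e and Btrc were not called in any of these 3 averages.

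The genes whose pattern was most like Dbp and Arntl were found by correlation of deviations from group means over the 59 mice, among 8719 other genes. For Dbp, r was highest for Cspg5 (0.80), G6pc3 (0.79), Olfml3 (0.79), Lhx2 (0.79) and Colgalt1 (0.78), and lowest for Tulp4 (-0.83), Scg2 (-0.83), Inhba (-0.83), Mkln1 (-0.82) and Cdk12 (-0.80). In the 57 mice without the 2 that stood apart these 10 ran from 0.54 for Colgalt1 to 0.69 for Lhx2, and from -0.72 for Cdk12 to -0.65 for Mkln1. For Arntl, r was high for Bcl7a (0.68), Epha10 (0.68), Foxk2 (0.68) and Nap1l1 (0.67) and lowest for Cdk4 (-0.64), Ece2 (-0.64), Nol7 (-0.63), Rsrp1 (-0.62) and Kcnj10 (-0.62). In 57 mice these ran from 0.56 for Nap1l1 to 0.59 for Foxk2 and from -0.55 to -0.51. None of the 19 other clock genes was among them. These are descriptions over mice that share tissue content and depth.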

How the data were processed

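RNA was sequenced from the prefrontal cortex of 59 mice after poly(A) selection and stranded library preparation, per the labels' protocols. The submitters' processing notes name Salmon 0.11.2, R 3.6.0, DESeq2 1.19.11 and GRCm38, with no role or order. The authors deposited a signal per gene and library, read counts divided by a library size factor; whole counts were recovered for 100% of values within 0.01 counts, although in 3 libraries the step lay too near 1 to show it alone. Depth limits these genes little, since the lowest averaged 344 normalised counts.

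Of 18088 genes, 17901 were tested, those reaching 10 in 4 libraries. limma 3.58.1 (R 4.3.3, trend) was fitted to log2(value + 1), which understates changes of low genes, with 12 group means and 47 residual degrees of freedom. Adjustment was by Benjamini-Hochberg over all tested genes in each of 24 comparisons, threshold 0.05. The steps were tested on simulated data. Correlations used 100000 permutations (Python 3.11.15, scipy 1.17.1). Exon lengths came from GENCODE M21. Alternatives were other pseudocounts, filters, scalings, weights and sample sets, a replicate block, an olfactory bulb covariate and edgeR 4.0.16. Replicate numbers did not pair mice: same-numbered mice had a mean correlation of deviations of -0.007. Replicates differed beyond counting noise in all 116 pairs within groups (chi-square per gene 3.05 or more). The members and lists were chosen with earlier results of these data known. Named genes are all 10 members, listed clock genes and outputs that passed, and the 5 genes most and least correlated with Dbp and Arntl. A few genes that these rules name are not reported here.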

Additional observations from a re-analysis of the deposited data

Results flagged for a closer look

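In 7 of 120 sets of 1 clock gene in 1 group, a mouse lay far from the others by Dixon's criterion, where chance gives about 1 in 20. Per1 was 4010 in Het fluoxetine male replicate 3, against 2184 to 2688 in the rest of its group, and 3032 in WT lithium male replicate 3, against 1866 to 2154. Per2 was 1814 in WT vehicle female replicate 3, against 1161 to 1327. Per3 was 1757 in Het fluoxetine female replicate 1, against 1487 to 1529, and 2055 in Het lithium male replicate 4, against 1419 to 1597. Nr1d1 was low at 2209 in Het vehicle female replicate 2, against 2535 to 2549, and Hlf was 5175 in WT fluoxetine female replicate 2, against 4114 to 4422.

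Effects differed between females and males for 8 values, all in Het mice or with the Het vehicle mice in the contrast. The genotype effect under vehicle differed for Nr1d1 (0.45, adjusted p = 0.0156, limma) and Ciart (0.60, adjusted p = 0.0354), where 16% of all genes were called. The lithium effect in Het mice differed for Nr1d1 (-0.47, adjusted p = 0.0182), where 3.07% of all genes were called. The fluoxetine effect in Het mice differed for Nr1d1 (-0.55, adjusted p = 2.3e-04), Ciart (-0.73, adjusted p = 0.00464), Arntl (-0.42, adjusted p = 0.0158), Tef (-0.30, adjusted p = 0.0343) and Nr1d2 (0.21, adjusted p = 0.0477). In that fluoxetine contrast 34.3% of all genes were called. Without Het fluoxetine male replicates 3 and 4 its calls for Arntl, Tef and Nr1d2 were lost. All of these contrasts share the Het vehicle mice.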

How the results depend on the processing

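Per1 kept its call with each drug, averaged over genotypes, under all 12 alternatives and all single-library omissions, with lithium differences from -0.32 to -0.27 and fluoxetine differences from -0.35 to -0.27. Numbers of members called, in the form reported count to alternative count, moved as follows. A filter of 100 gave 2 in Het females with fluoxetine (reported 1). Quantile normalization gave 0 for genotype under vehicle (1), 1 for lithium in Het mice (0) and 2 for genotype in vehicle males (4). Array weights gave 2 for genotype under vehicle (1) and with lithium (0), 1 for lithium in Het and in WT mice (0 each), 3 for fluoxetine in WT mice (0), 4 for genotype averaged (1), 2 for lithium averaged (1), 4 for lithium in Het females (1) and Het males (0), 3 for fluoxetine in Het females (1) and Het males (5), 5 for genotype by sex (2), 3 for lithium by sex (1) and fluoxetine by sex (5) in Het mice, and 1 for fluoxetine by genotype (0). The olfactory bulb covariate gave 0 for genotype under vehicle (1), averaged (1), in vehicle males (4) and by sex (2), 1 for lithium in Het mice (0), 0 and 2 for fluoxetine in Het females (1) and males (5), and 1 for fluoxetine by sex in Het mice (5). Without Het fluoxetine male replicates 3 and 4 there were 0 for fluoxetine in Het males (5), 2 for fluoxetine by sex in Het mice (5), and, chosen after seeing the data, 2 for genotype under vehicle (1), 1 for lithium in Het mice (0), 1 for fluoxetine in WT mice (0) and 2 for fluoxetine in Het females (1). With both changes, also chosen after seeing the data, there were 0 for genotype under vehicle, averaged, in vehicle males and by sex, 0 for fluoxetine in Het males and by sex in Het mice, 1 for lithium in Het and in WT mice, 3 for lithium averaged, and 2 for lithium and for fluoxetine in Het females. Fitting only the groups compared gave 0 for genotype under vehicle and by sex, 0 for fluoxetine in Het mice (1) and Het males, 0 for lithium in Het females and by sex in Het mice, 1 for lithium in Het mice, 3 for fluoxetine in WT mice, 2 for fluoxetine in Het females and 2 for fluoxetine by sex in Het mice. In Het males given fluoxetine, Nr1d2 turned to 0.03 and Hlf to 0.11 with array weights, and Hlf to 0.064 without replicates 3 and 4. The number of all genes called also moved with the setting, as given below for genotype under vehicle. A change in a count of members is therefore not by itself a result about the clock genes. The cause of these moves was not tested.

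Leaving out 1 library gave 0 to 1 members for genotype with fluoxetine, genotype under vehicle, lithium in Het mice, lithium in Het females and fluoxetine by genotype, 0 to 2 for lithium in Het males, lithium by sex in Het mice, genotype by sex and fluoxetine in Het females, 0 to 3 for fluoxetine in Het mice, 1 to 2 for fluoxetine averaged, 2 to 4 for genotype in vehicle males, 1 to 7 for fluoxetine in Het males and 2 to 7 for fluoxetine by sex in Het mice. Single calls lost in this way included Tef under vehicle (without Het vehicle female replicates 2, 3 or 5, Het vehicle male 3, 4 or 5, WT vehicle female 2, 3 or 5, or WT vehicle male 2, 3 or 4), Per1 in Het mice with fluoxetine (without Het fluoxetine female 3, 4 or 5, Het fluoxetine male 4, Het vehicle female 3 or 5, or Het vehicle male 3, 4 or 5) and Nr1d1 in Het females with lithium (without lithium replicate 5 or vehicle replicate 3 or 4, adjusted p up to 0.0539). In vehicle males they included Hlf (without Het replicate 3, 4 or 5 or WT replicate 2, 3 or 4, adjusted p up to 0.138) and Ciart (without Het replicate 3 or 4 or WT replicate 1 or 4, adjusted p up to 0.129), and, for genotype by sex, Nr1d1 (without Het male 3 or 4 or WT female 4, adjusted p up to 0.0645) and Ciart (without replicate 1 or 4 of either vehicle female group or of WT vehicle males, or Het male 3 or 4, adjusted p up to 0.113). Nr1d1 in Het females with fluoxetine was lost without fluoxetine replicate 1, 2 or 3 or vehicle replicate 1, 3, 4 or 5 (adjusted p up to 0.166), and the lithium effect on Nr1d1 by sex without Het vehicle female 4 or 5 or male 3 or 4 (adjusted p up to 0.0654). In Het males with fluoxetine, Het fluoxetine male 3 alone cost Tef its call (adjusted p = 0.0559), fluoxetine male 3 or 4 that of Nr1d2, these or vehicle male 1 or 2 that of Hlf, and fluoxetine male 3 or vehicle male 4 that of Ciart. For fluoxetine by sex, Arntl was lost without fluoxetine male 3 or vehicle male 3, Tef without any of 6 libraries and Nr1d2 without any of 14 of 20. The replicate block changed no number of members called, with 1 for Per1 under each averaged drug, and numbers did not pair mice: 8 of 59 correlated best with a mouse of their own number. TMM moved libraries by -0.019 to 0.015 log2. Over all genes the number called for genotype under vehicle was 2353, against 7567 with array weights, 4083 without Het fluoxetine male replicates 3 and 4, 139 in a fit of the groups compared and 2 with the olfactory bulb covariate.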

Other observations

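Clock output genes outside the members were also read, 9 in all. Averaged over treatments, Het mice had lower Usp2, a ubiquitin protease driven by the clock, by -0.13 (adjusted p = 0.0311, limma), and higher Cirbp, a cold-inducible RNA-binding protein gene, by 0.16 (adjusted p = 0.032), so 2 of 9 were called, beside 21.4% of all genes. With lithium and with fluoxetine 0 of 9 were called, while 3 and 2 had an unadjusted p under 0.05. In Het vehicle males 4 of 9 were called against WT vehicle males: Noct (0.26) and Cirbp (0.35) were higher and Wee1 (-0.30) and Usp2 (-0.44) lower. In that comparison 36.7% of all genes were called, so 4 of 9 is close to the background, and the 8 olfactory bulb markers were higher in Het males by a median of 3.83.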
